A study of Rattus norvegicus with 6 samples.

Results

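The synaptic vesicle and SNARE release genes described here are 8 genes chosen by name: the SNARE genes Snap25, Stx1a and Vamp2, the calcium sensor gene Syt1, the complexin gene Cplx1, and the vesicle protein genes Syp, Syn1 and Sv2a. They were found by symbol in a table of 13556 genes on 13843 rows, where they stand on 9 rows, since Syt1 has 2 listings. The cultures were neonatal rat ventricular myocytes, muscle cells from the hearts of newborn rats, sequenced as 6 libraries in 3 groups of 2. For 3 days all 3 groups received a short hairpin RNA and phenylephrine (PE), which acts on alpha-adrenergic receptors and makes cultured myocytes grow. The PE group received a control hairpin, the PE+TSA group the control hairpin and TSA (by usual abbreviation trichostatin A, a histone deacetylase inhibitor), and the PE+TSA+shJIP1 group TSA and a hairpin against JIP1, which the labels also call a knockout. JIP1, encoded by Mapk8ip1, is a scaffold that holds kinases of the JNK pathway together. No group here lacked PE, and none received the JIP1 hairpin without TSA. Whether the 2 libraries of a group are separate cultures is not labelled, so p-values measure only how far these samples spread, and that spread may be technical.

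In neurons and neuroendocrine cells, a vesicle fuses with the cell surface when SNARE proteins of both membranes zip into a bundle. VAMP2 sits on the vesicle, syntaxin 1A and SNAP-25 sit on the cell surface, complexin clamps the bundle, and synaptotagmin 1 binds calcium and triggers fusion. Cells outside the nervous system, heart muscle included, use related SNAREs such as SNAP-23, syntaxin 4 and VAMP3 for general secretion and for moving membrane proteins.

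Values are FPKM, a read density per transcript length and library size, so levels of different genes can be set side by side. Low values lie at steps of whole reads, which gives relative depth: PE replicate 2 had 0.0481 of the depth of PE replicate 1 (20.8 times shallower), and the other 4 libraries had 0.72 to 1.34 of it. Features at 0 numbered 3667 in PE replicate 2 against 1407 to 1837 elsewhere. A 0 in PE replicate 2 can hide 3 reads, which for Syp is 3.65 FPKM. An absence of overlap with PE thus refers to the values as listed. A listed 0 can be a failed estimate: Col1a2 was at 0 in 5 libraries where Col1a1, its partner in type I collagen, was at 284 to 1050 FPKM. Of 14 ventricular myocyte markers, 13 had a row and none was at 0 throughout, and their summed level was 18374 to 22595 FPKM under PE, 6297 to 11281 under PE+TSA and 6332 to 10939 under PE+TSA+shJIP1. Mapk8ip1 was at 3.77 and 4.39 FPKM under PE, 14.6 and 17.9 under PE+TSA, and 1.80 and 3.65 with its hairpin (log2 difference between the last 2 groups -2.25 ± 0.34 SE, limma adjusted p = 0.077).

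Before any comparison, the 8 genes fell into a group that was present under PE and a group that was not or hardly so. In PE, Vamp2 stood at 54.6 ± 7.27 FPKM (mean ± SD, n = 2) and Sv2a, a vesicle membrane glycoprotein, at 7.87 ± 0.412. Stx1a was at 0.393 and 0.908 FPKM. Every listing of the other 5 genes had a deposited value below 0.24 FPKM in both PE libraries. A 0 in the shallow PE replicate 2 can stand for a higher level. In PE+TSA the order was Vamp2 (52.2 ± 10.3), Snap25 (44.6 ± 7.46), Syn1 (10.7 ± 2.94), Sv2a (7.93 ± 1.05), Syt1 listing 2 (3.64 ± 0.937), Syp (3.04 ± 0.143), Cplx1 (1.33 ± 1.13) and Stx1a (1.15 ± 1.16), leaving aside Syt1 listing 1, which had reads in 1 library of that group. The libraries of Vamp2 and Snap25 overlapped in that group, and so did those of Syn1 and Sv2a, of Syt1 listing 2 and Syp, and of Cplx1 and Stx1a, so the order within these pairs is not beyond their spread. In PE+TSA+shJIP1 the order was Vamp2 (40.5 ± 3.84), Snap25 (20.9 ± 1.23), Sv2a (7.02 ± 0.753), Syt1 listing 2 (3.26 ± 0.902), Syp (3.08 ± 1.61), Syn1 (2.15 ± 1.56), Stx1a (1.97 ± 0.218) and Cplx1 (0.263 ± 0.194). From Syt1 down to Stx1a each neighbouring pair overlapped.

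**Figure D1:**
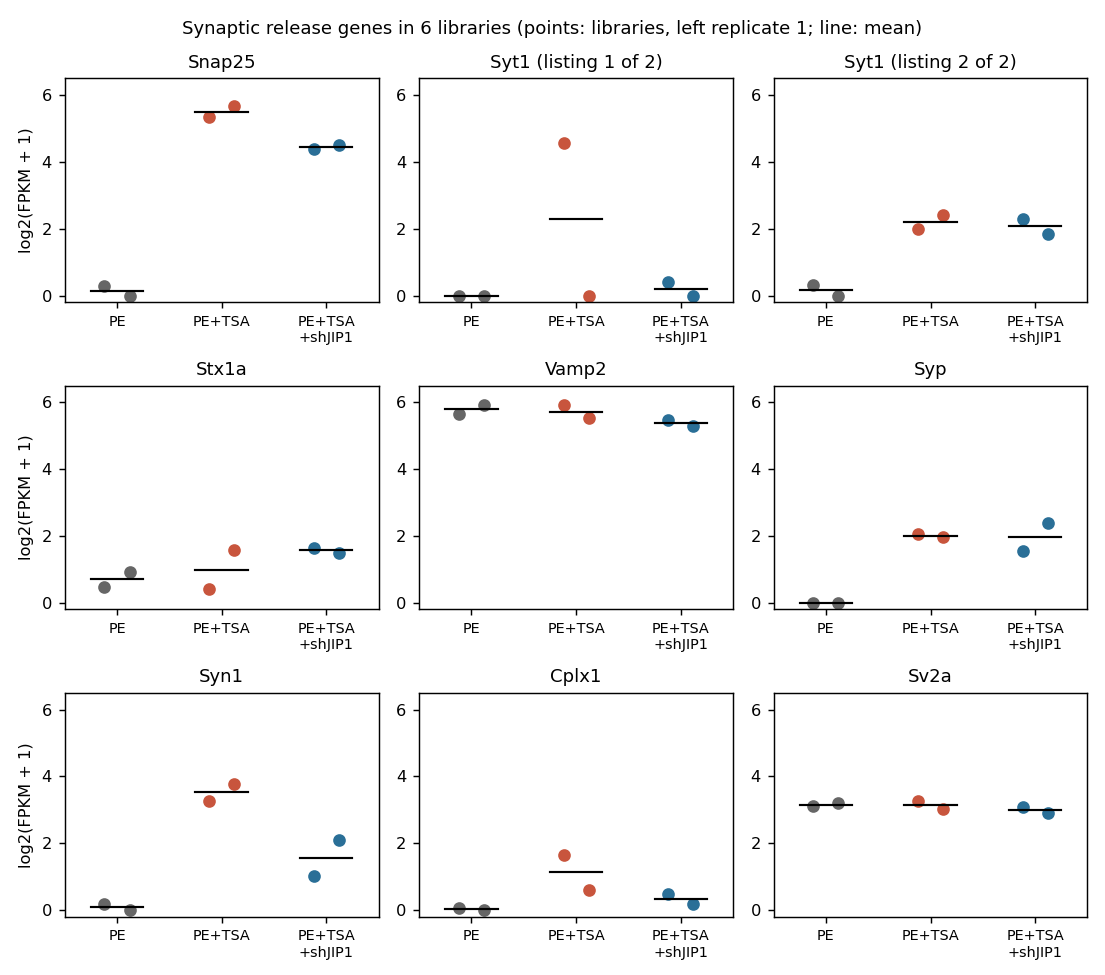
Level of each of the 9 listings as log2(FPKM + 1), 1 panel per listing and 1 point per library (replicate 1 on the left), with a line at the mean of each group. Snap25, Syn1, Syp and Syt1 listing 2 lie near 0 under PE and higher in both TSA groups, while the group means of Vamp2 and Sv2a differ by at most 0.42 on this scale.

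The first comparison, PE+TSA against PE, bears on the effect of TSA in myocytes that also received PE. Snap25 and Syn1 rose, 2 of the 8 listings that could be tested, and no listing fell. Over all 10359 features tested (mean of at least 1 FPKM), 0.627% rose and 0.183% fell (0.811% in all) by the same rule, a limma adjusted p under 0.05 on log2(FPKM + 1). In 4 of the 8 listings both PE+TSA libraries lay above both PE libraries (Snap25, Syn1, Syp and Syt1 listing 2), against 29.5% of all features. The median change of the 8 listings was 2.03 on the log2 scale and that of all features 0.10. Of the 9 listings, Cplx1 alone did not reach the filter. The listings that reached it did so in part through the TSA libraries, so these counts are a description. The summed level of a neuron marker list was higher as well, 91.9 and 120 FPKM against 57.0 and 40.4 under PE. The 3 listings of 1 gene, Chat, made up most of that sum. The part of the list in these changes was not tested. In bulk RNA, a change in the number of cells of a type and a change in RNA per cell cannot be told apart.

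Snap25 had 0.220 FPKM in PE replicate 1 and none in PE replicate 2, where it is listed at 0, against 39.3 and 49.9 with TSA. The groups did not overlap. On the log2(FPKM + 1) scale the change was 5.36 ± 0.26 (SE; limma adjusted p = 0.00308), and it passed in each of the 15 other settings tried, with an adjusted p between 0.00225 and 0.0475. Its size follows the number added before the logarithm, being 7.96 with 0.1 and 3.27 with 5.

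Syn1 encodes synapsin I, a phosphoprotein that ties vesicles to each other and to actin. It was at 0.144 and 3.67e-10 FPKM under PE, the second value being as deposited, and at 8.61 and 12.8 under PE+TSA. Both PE+TSA libraries lay far above both PE libraries. The change was 3.43 ± 0.47 (limma adjusted p = 0.0413), and the call was lost when any of the 6 libraries was left out (adjusted p from 0.0537 to 0.377).

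Syp encodes synaptophysin, a protein of the synaptic vesicle membrane. Both PE libraries list it at 0, and it stood at 3.14 and 2.94 FPKM under PE+TSA. In whole reads these values are 0 and 0 against 72 and 43. A count of 0 allows 3 reads, which is 0.175 FPKM in PE replicate 1 but 3.65 FPKM in the shallow PE replicate 2, above both PE+TSA values. The log2 difference of 2.01 ± 0.43 did not pass (unadjusted p = 0.00301, limma adjusted p = 0.103).

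Syt1 encodes the calcium sensor of fast release. Its listing 2 was at 0.239 FPKM and 0 under PE and at 2.98 and 4.30 under PE+TSA, again without overlap in the listed values. The 0 is that of the shallow PE replicate 2. Whole reads were not resolved for this listing, so the level that this 0 allows is not known. The difference of 2.05 ± 0.40 did not pass (unadjusted p = 0.00183, limma adjusted p = 0.0849). Its listing 1 was at 0 in both PE libraries, at 23.0 in PE+TSA replicate 1 and at 0 in PE+TSA replicate 2, so that its difference of 2.29 ± 1.36 rests on 1 library (adjusted p = 0.403). Which transcript or place each listing stands for is not given in the table.

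Cplx1, the complexin gene, was at 0.0451 FPKM and 0 under PE and at 2.12 and 0.528 under PE+TSA. These values are 1 and 0 reads against 63 and 10. The 95% Poisson interval, which covers counting error only, was 1.63 to 2.72 FPKM in PE+TSA replicate 1 and 0.253 to 0.971 in PE+TSA replicate 2, so the pair of TSA libraries differed by more than counting error. The 0 of PE replicate 2 allows 2.82 FPKM, above every other value of this gene. With no filter its difference was 1.10 on the log2 scale (limma adjusted p = 0.265).

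In the other 3 genes, Vamp2, Sv2a and Stx1a, the PE and PE+TSA libraries overlapped. Vamp2, the vesicle SNARE, was at 49.5 and 59.8 FPKM under PE and at 59.5 and 44.9 under PE+TSA, with overlapping groups and a change of -0.07 (95% interval -0.63 to 0.48; limma adjusted p = 0.885). Sv2a was at 7.58 and 8.16 FPKM under PE and 8.67 and 7.19 under PE+TSA, a change of 0.01 (-0.61 to 0.63; adjusted p = 0.995) whose sign moved with the setting. Its values are 734 and 38 reads against 1124 and 595. Stx1a, a syntaxin of neurons, was at 0.393 and 0.908 FPKM under PE and at 0.326 and 1.97 under PE+TSA. The PE+TSA libraries of Stx1a lay on both sides of the PE libraries, with 20 and 77 reads whose 95% Poisson intervals do not meet (0.199 to 0.504 and 1.55 to 2.46 FPKM), and the change was 0.28 (-0.98 to 1.55; adjusted p = 0.797). Its PE replicate 2 value rests on 2 reads.

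**Figure D2:**
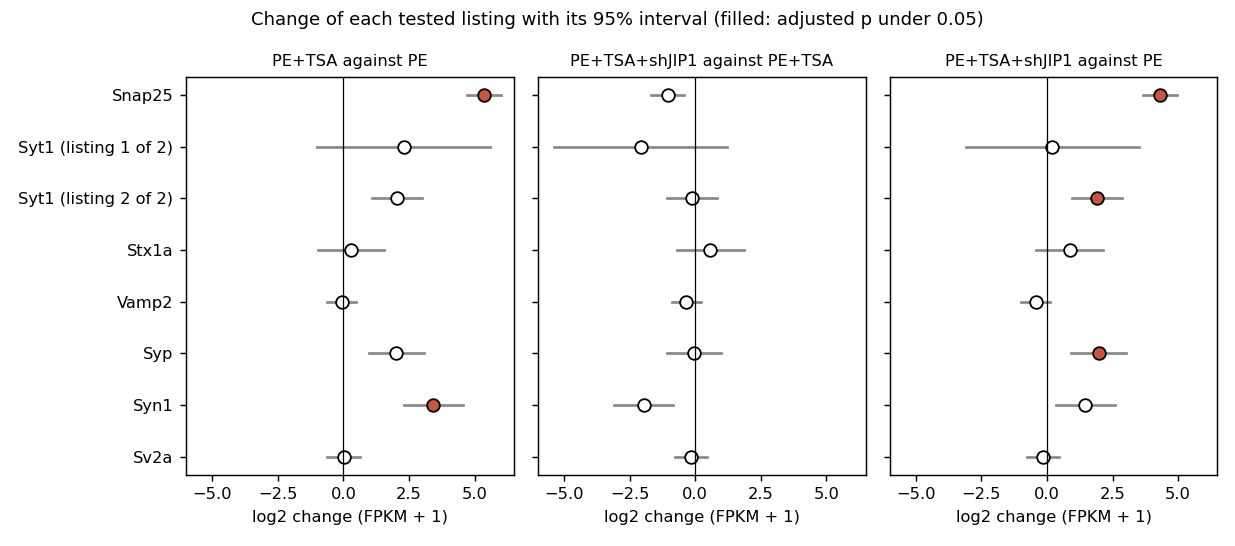
Log2 change (FPKM + 1) of the 8 tested listings in the 3 comparisons, each with its 95% interval from limma, filled where the adjusted p is under 0.05. Snap25 and Syn1 are filled for PE+TSA against PE, no listing for the JIP1 hairpin, and Snap25, Syp and Syt1 listing 2 for PE+TSA+shJIP1 against PE.

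The second comparison, PE+TSA+shJIP1 against PE+TSA, asks what the JIP1 hairpin changes when TSA is present. No listing passed (limma, 0 of 8), where 0.29% of all features did (0.183% higher, 0.106% lower). A limma unadjusted p under 0.05 was reached by 2 of the 8, and by 1540 of the 10359 features tested. In 3 of the 8 both hairpin libraries lay below both PE+TSA libraries (Snap25, Syn1 and Vamp2), against 25.1% of all features, and in none both lay above, against 24.9%. Since this comparison shares the PE+TSA libraries with the first, a high PE+TSA value raises one difference and lowers the other.

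Snap25 was at 20.0 and 21.8 FPKM with the hairpin, below the 39.3 and 49.9 of PE+TSA and above both PE values. The difference from PE+TSA was -1.05 ± 0.26 (95% interval -1.68 to -0.41; unadjusted p = 0.00645, limma adjusted p = 0.163). Syn1 was at 1.04 and 3.25 FPKM with the hairpin, against 8.61 and 12.8 without it. Its difference was -1.97 ± 0.47 (-3.10 to -0.83; unadjusted p = 0.00519, adjusted p = 0.153). Both genes thus took a middle place in the hairpin libraries, although neither difference passed over all features.

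Syp was at 1.94 and 4.22 FPKM with the hairpin (30 and 52 reads), on both sides of its PE+TSA values (difference -0.04, -1.09 to 1.0). Syt1 listing 2 was at 3.90 and 2.63 FPKM, also overlapping PE+TSA (-0.12, -1.08 to 0.83), and listing 1 at 0.337 and 0. Cplx1 was at 0.400 and 0.125 FPKM (8 and 2 reads). Vamp2 was at 43.3 and 37.8 FPKM, a difference of -0.35 (-0.90 to 0.21; limma adjusted p = 0.539), and Sv2a at 7.55 and 6.49 (-0.15, -0.77 to 0.47). Stx1a was at 2.13 and 1.82 FPKM (88 and 60 reads), close to the higher of the PE+TSA libraries (0.58, -0.68 to 1.85). The intervals of Syp and Syt1 listing 2 reach about 1 on the log2 scale below 0, and that of Stx1a further above it. Differences of that size are thus not excluded.

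The third comparison, PE+TSA+shJIP1 against PE, shows what TSA and the hairpin did together. Snap25, Syp and Syt1 listing 2 rose and no listing fell, 3 of 8 against 4.11% of all features that rose and 4.16% that fell (8.27% in all). Both hairpin libraries lay above both PE libraries for 5 of the 8 listings (those 3, Syn1 and Stx1a), against 33.9% of all features, and below for Vamp2 and Sv2a, against 26.7%. The change of Snap25 was 4.31 ± 0.26 (limma adjusted p = 0.00464), that of Syp 1.97 ± 0.43 (adjusted p = 0.0452) and that of Syt1 listing 2 1.92 ± 0.40 (adjusted p = 0.0401). The difference of Syn1 was 1.46 ± 0.47 (adjusted p = 0.0979), that of Stx1a 0.87 ± 0.52 (adjusted p = 0.306) and that of Vamp2 -0.42 ± 0.23 (adjusted p = 0.265). More features were called in this comparison than with TSA alone (857 against 84), so the adjustment was milder here. Syp and Syt1 listing 2 passed here and not with TSA alone, at nearly the same size of change. Their unadjusted p was slightly larger here (limma, 0.00337 against 0.00301 for Syp and 0.00253 against 0.00183 for Syt1 listing 2). They lost the call when any library was left out, the shallow PE replicate 2 (adjusted p = 0.118 and 0.113) among them, and over all settings their limma adjusted p ran from 0.0353 to 0.222 and from 0.0308 to 0.159. Snap25 passed in all settings but the fit of the 2 groups alone (adjusted p = 0.0518; 0.00443 to 0.0444 in the others).

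The RefSeq promoter table of the build GRCr8 holds 7 of the 8 genes, without Snap25. Each entry runs from 250 bases before the gene's start to 50 bases after it, printed 5′ to 3′ on the gene's strand. The windows of Syn1 and Syp, both higher in every TSA library than in PE, are shown beside those of Vamp2 and Sv2a, whose groups overlapped with TSA alone. They lie at chrX:3725495-3725794 (Syn1, plus strand), chrX:17536400-17536699 (Syp, minus strand), chr10:54292539-54292838 (Vamp2, plus strand) and chr2:186430113-186430412 (Sv2a, plus strand). Capitals mark letters of a GC box or of a cAMP response element.
Syn1: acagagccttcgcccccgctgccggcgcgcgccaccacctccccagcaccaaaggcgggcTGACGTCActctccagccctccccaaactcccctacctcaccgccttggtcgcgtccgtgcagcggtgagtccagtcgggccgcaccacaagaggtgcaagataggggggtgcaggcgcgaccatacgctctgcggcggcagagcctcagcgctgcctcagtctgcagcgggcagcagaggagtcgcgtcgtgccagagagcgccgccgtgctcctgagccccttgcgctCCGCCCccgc
Syp: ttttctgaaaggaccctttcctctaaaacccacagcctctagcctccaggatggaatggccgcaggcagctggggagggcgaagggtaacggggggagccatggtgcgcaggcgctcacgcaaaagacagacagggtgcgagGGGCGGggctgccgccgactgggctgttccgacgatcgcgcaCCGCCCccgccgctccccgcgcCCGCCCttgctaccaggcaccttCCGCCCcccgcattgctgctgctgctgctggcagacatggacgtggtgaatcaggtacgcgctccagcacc
Vamp2: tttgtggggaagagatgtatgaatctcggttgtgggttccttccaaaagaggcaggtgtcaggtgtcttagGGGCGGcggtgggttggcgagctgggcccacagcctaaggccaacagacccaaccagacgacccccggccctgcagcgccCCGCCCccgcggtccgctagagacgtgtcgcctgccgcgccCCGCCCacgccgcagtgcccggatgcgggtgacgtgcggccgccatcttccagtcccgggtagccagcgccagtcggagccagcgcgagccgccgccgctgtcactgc
Sv2a: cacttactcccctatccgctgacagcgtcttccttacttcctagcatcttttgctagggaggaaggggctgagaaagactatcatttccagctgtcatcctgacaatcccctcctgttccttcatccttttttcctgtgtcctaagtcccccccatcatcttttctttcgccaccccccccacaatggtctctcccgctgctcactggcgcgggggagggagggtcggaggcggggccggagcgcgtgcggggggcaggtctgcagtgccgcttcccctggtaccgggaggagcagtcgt

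Both strands were searched for exact letters. The GC box GGGCGG was in 6 of the 7 windows (not in Sv2a), against 33.1% of 33469 promoters of this length. The cAMP response element TGACGTCA was in the Syn1 window alone, against 1.83%. The repressor REST binds an element called RE1 in many neuronal genes. Its left part TTCAGCACC and right part GGACAGCGC were in none of the 7 windows, against 0.356% and 0.415% of all promoters, and the TATA box TATAAA was in none, against 14.2%. The windows held 8 to 31 CpG pairs, against a median of 7 over all promoters. GC boxes thus stood in the windows of Syn1, Syp and Vamp2 alike, and a match is a run of letters, not a known site.

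Levels of the members were set beside those of paralogs that many tissues use, in the RNA of the whole culture. Snap23, the general relative of Snap25, was at 13.7 and 15.4 FPKM under PE, 7.93 and 10.3 under PE+TSA, and 14.9 and 19.1 under PE+TSA+shJIP1. In PE replicate 1 it was 62.3 times the level of Snap25. In both PE+TSA libraries the order was turned, with Snap25 at 4.96 and 4.82 times Snap23, and in the hairpin libraries the ratio was 1.35 and 1.14. Snap23 itself passed no comparison (TSA -0.63 ± 0.26, limma adjusted p = 0.262; hairpin 0.83 ± 0.26, adjusted p = 0.223).

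Vamp3, a vesicle SNARE of general recycling, was at 30.8 and 24.8 FPKM under PE, 34.1 and 33.2 under PE+TSA, and 76.6 and 83.8 under PE+TSA+shJIP1. Vamp2 exceeded it in all 4 libraries without the JIP1 hairpin, by 1.35 to 2.41 times, while in both hairpin libraries Vamp3 stood 1.77 and 2.21 times above Vamp2. Vamp3 rose against PE (1.5 ± 0.20, limma adjusted p = 0.0173), and its difference from PE+TSA missed the threshold (1.23 ± 0.20, adjusted p = 0.0859). Vamp1, another vesicle SNARE, was at 11 and 10.1 FPKM under PE, 22.2 and 15.8 with TSA, and 3.8 and 6.16 with the hairpin. Its hairpin difference was -1.75 ± 0.31 (limma adjusted p = 0.0923).

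Syn2, which encodes the second synapsin, was present without TSA, at 11.3 and 9.63 FPKM under PE, 18.1 and 14.7 under PE+TSA and 11.7 and 6.93 with the hairpin. It stayed above Syn1 in all 6 libraries. Stx4, the cell-surface syntaxin of general secretion, was at 22.9 to 43.7 FPKM and exceeded Stx1a 12.6 to 111 times. Sypl1, a relative of synaptophysin found in most tissues, was at 25.4 to 44.5 FPKM, and 9.09 to 21.3 times the level of Syp in the 4 TSA libraries. The neuronal relatives Sv2b, Sv2c, Syn3 and Syt2 stayed below 1 FPKM in every library.

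**Figure D3:**
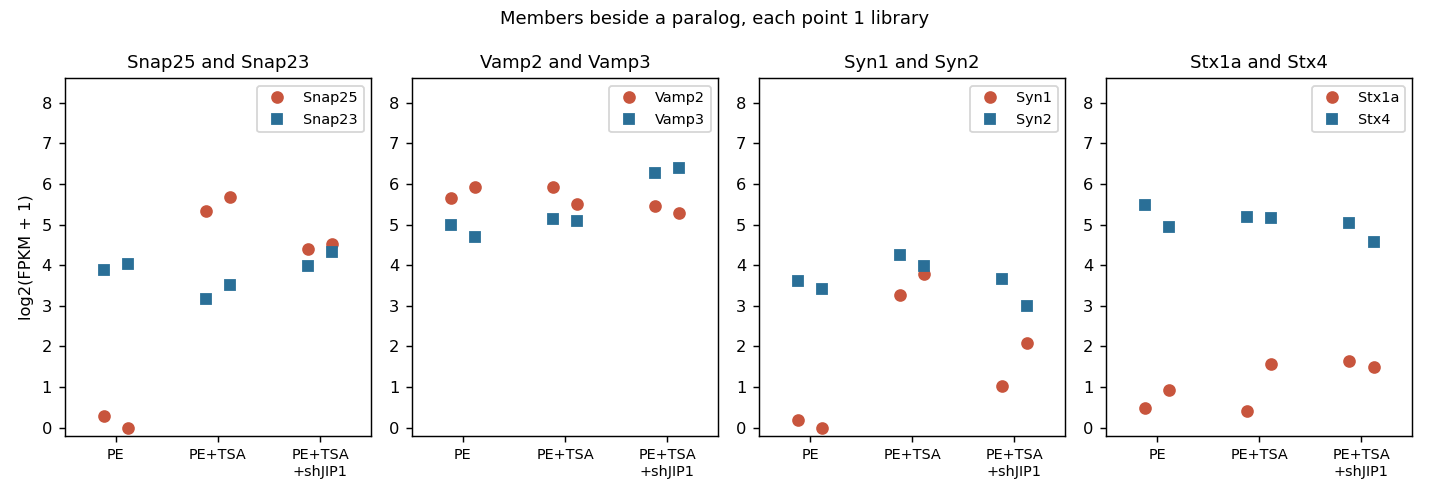
Level as log2(FPKM + 1) of 4 members (circles) beside a paralog (squares), 1 point per library. Snap25 passes from below to above Snap23 with TSA, Vamp3 passes above Vamp2 in the hairpin libraries, and Stx1a stays below Stx4 in all 6.

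A list of 88 further vesicle and release genes had 83 in the table, on 84 rows, of which 52 were tested. With TSA 2 of the 52 rose and none fell, against 0.627% and 0.183% of all features. In 34 of the 52 both PE+TSA libraries lay above both PE libraries (65.4%, against 29.5% of all features). In 5 both lay below (9.62%, against 21.1%), and the median change was 0.63. Some listings reached the filter in part through the TSA libraries, so counts of this list against PE are a description too. Sncb, which encodes beta-synuclein, a presynaptic protein, was at 0.759 FPKM and 0 under PE and at 8.0 and 9.82 under PE+TSA (2.90 ± 0.37, limma adjusted p = 0.0372). Slc17a7, which encodes the vesicular glutamate transporter VGLUT1, was at 0.794 and 0.974 FPKM and then at 14.5 and 11.8 (2.90 ± 0.33, adjusted p = 0.0307). Syt11, an atypical synaptotagmin, and Scamp5, a vesicle membrane protein, had differences of 2.34 ± 0.45 and 3.35 ± 0.67 (adjusted p = 0.0845 and 0.0914). Without the shallow PE replicate 2 none of the 54 listings then tested passed (limma, 16 at an unadjusted p under 0.05), and the median was 0.64.

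Against PE, PE+TSA+shJIP1 had 5 risen and 2 fallen genes of the 52, against 4.11% and 4.16% of all features, so the count of fallen genes is near the share over all features. Sncb (3.16 ± 0.37), Syt11 (3.40 ± 0.45), Scamp5 (3.39 ± 0.67), Slc17a7 (2.17 ± 0.33) and Syt5 (2.45 ± 0.38) rose, with limma adjusted p between 0.0143 and 0.0362. Snap91, an adaptor of vesicle retrieval, went from 30.8 and 42.8 FPKM to 15.7 and 16.4 (-1.13 ± 0.23, adjusted p = 0.0392), and Slc6a17, a vesicular amino acid transporter, from 21.2 and 19.6 to 9.84 and 9.14 (-1.03 ± 0.21, adjusted p = 0.0403). Without PE replicate 2 none of 54 passed (limma, 21 at an unadjusted p under 0.05). With the hairpin against PE+TSA none passed either. Of the 52, 14 had a limma unadjusted p under 0.05, against 1540 of the 10359 features tested. Without overlap 21 of 52 lay lower (40.4%, against 25.1%) and 11 higher (21.2%, against 24.9%). The 4 with the smallest p were Apba1, a presynaptic adaptor (-1.63 ± 0.26, adjusted p = 0.0845), Vamp1, Slc6a17 and Synpr, a vesicle protein related to synaptophysin (-2.12 ± 0.40, adjusted p = 0.105).

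The SNAREs and their regulators of general membrane traffic gave other counts. Of 39 such genes 34 were listed and 33 tested. With TSA none passed, and 4 of the 33 had a limma unadjusted p under 0.05, against 1938 of the 10359 features tested. Without overlap 5 lay higher and 7 lower (15.2% and 21.2%, against 29.5% and 21.1% of all features), and the median change was -0.07. Against PE, Vamp3 rose and Ykt6, a SNARE of the Golgi, fell with TSA and the hairpin (60.2 and 73.1 to 30.6 and 31.8 FPKM; -1.07 ± 0.21, adjusted p = 0.0368). These calls, 1 of 33 in each direction, are no larger a share than the 4.11% and 4.16% over all features. Without PE replicate 2 neither passed (limma, 7 of 33 at an unadjusted p under 0.05). The difference between the 2 lists was not tested.

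**Figure D4:**
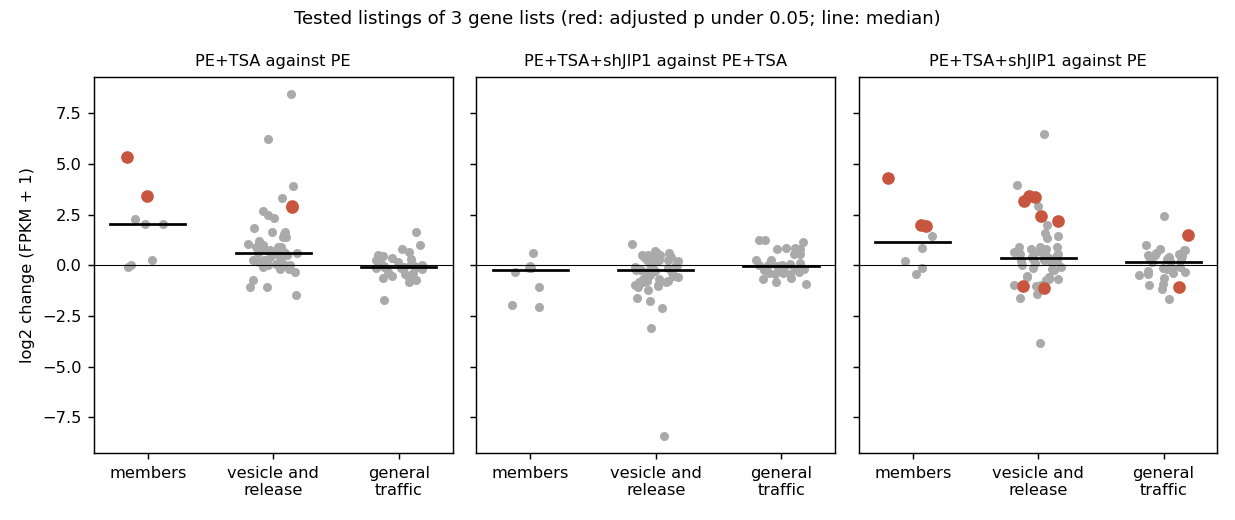
Log2 change (FPKM + 1) of each tested listing of the 8 members, of the further vesicle and release genes and of the general traffic genes, with the median as a line and red for an adjusted p under 0.05. With TSA the medians are 2.03, 0.63 and -0.07.

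Neuron markers were read beside these genes, since heart cultures can hold nerve cells. Of 24 markers 21 had a row (23 rows), with a summed level of 40.4 and 57.0 FPKM under PE, 91.9 and 120 under PE+TSA, and 97.1 and 120 under PE+TSA+shJIP1. Of the 12 rows tested, 11 were higher with TSA without overlap (against 29.5% of all features), and the median change was 1.41. The other of the 12 rows, Chat listing 1, was lower without overlap (2.23 and 2.36 FPKM under PE, 0.678 and 1.5 under PE+TSA). None of the 12 passed, and 10 had a limma unadjusted p under 0.05, against 1938 of the 10359 features tested. Rows reached the filter in part through the TSA libraries, and not all rows below it were higher with TSA. These counts are therefore a description. Stmn2, a neuronal tubulin-binding protein, had no value above 0 under PE and 2.87 and 2.96 FPKM with TSA (1.97 ± 0.38, limma adjusted p = 0.0845). Prph, a neuronal intermediate filament, was at 0.814 and 1.13 FPKM, then at 3.85 and 5.40 with TSA and 4.14 and 5.43 with the hairpin, and rose against PE in the last group (1.55 ± 0.34, adjusted p = 0.0477). Of the 23 rows, 7 stayed under 1 FPKM throughout. The highest were listings 3 and 2 of Chat, which makes acetylcholine, and Tubb3, a neuronal beta-tubulin. Chat listing 3 was at 27.8 and 28.6 FPKM under PE and at 37.9 and 41.2 under PE+TSA. Chat listing 2 was at 9.40 and 0 FPKM under PE and at 15.0 and 22.9 under PE+TSA. The 3 Chat listings made up most of the summed level in every library. Tubb3 was at 5.61 and 4.49 FPKM under PE and at 8.83 and 15.1 under PE+TSA. Th, an enzyme of catecholamine synthesis that sympathetic neurons make, was listed at 0 in all 6 libraries, while Dbh, a later enzyme of that synthesis, was at 0.854 to 2.24 FPKM. The chromaffin and neuroendocrine list summed to 1.33 FPKM and, in the shallow PE replicate 2, 0 under PE. Its sums were 2.63 and 3.35 under PE+TSA, and 1.68 and 0.874 under PE+TSA+shJIP1. The Schwann and glial sum was also higher with TSA: 3.63 and 3.44 FPKM under PE, 6.94 and 7.18 under PE+TSA, and 6.70 and 5.81 with the hairpin. Sox10 of that list was at most at 0.0298. Endothelial markers summed to 16.8 and 15.4 FPKM under PE, 19.4 and 39.2 under PE+TSA, and 11.3 and 15.9 with the hairpin. Macrophage markers summed to 11.7 and 18.3 under PE, 7.27 and 13.2 under PE+TSA, and 7.90 and 5.24 with the hairpin. The summed levels of some other lists were lower with TSA: fibroblast markers summed to 1067 and 1719 FPKM under PE and to 550 to 763 in the 4 TSA libraries, and smooth muscle and pericyte markers to 2530 and 2104 under PE and 455 to 1205 with TSA. Col1a1 makes up most of the fibroblast sum, and Thy1, a surface protein of fibroblasts that neurons also carry, went the other way (3.29 and 1.56 FPKM under PE, 20.9 and 24.7 under PE+TSA; 2.84 ± 0.36, limma adjusted p = 0.0373). Acta2 and Des made up most of the smooth muscle and pericyte sum under PE. Both fell with TSA (-2.43 ± 0.29 and -1.86 ± 0.23, limma adjusted p = 0.0332 and 0.0372). Which cells their RNA came from was not tested. All 13 ventricular myocyte markers had lower means with TSA. None was called, and 7 had a limma unadjusted p under 0.05, against 1938 of the 10359 features tested. With TSA and the hairpin 4 of the 13 fell (Tnni3, Myl3, Pln and Casq2), against 4.16% of all features. Without PE replicate 2 the neuron median was 1.0. The part of these lists in the changes of the release genes was not tested either.

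The features whose profile over the 6 libraries was nearest to that of Snap25 were Tubb4a, Oxct2a, Cox6b2, Gstt3 and Serpini1. Likeness was the root mean square difference of log2(FPKM + 1) after centring each profile, among 10351 tested features that are no member, and was 0.35, 0.49, 0.57, 0.65 and 0.76 for these 5. Tubb4a, a beta-tubulin of the brain, was at 2.14 and 1.98 FPKM under PE, 61.1 and 80.6 under PE+TSA and 38.1 and 41.8 with the hairpin. Oxct2a, a ketone body enzyme of the testis, was at 0 in both PE libraries, then at 14.5 and 21.1, then at 10.2 and 10.9. Cox6b2, a cytochrome c oxidase subunit of the testis, was also at 0 in both PE libraries, then at 35.9 and 57.3, then at 43.1 and 50.6. Gstt3, a glutathione transferase, was at 3.03 and 0, then 49.2 and 53.4, then 46.4 and 53.4. The 5 are thus not all genes of the nervous system. Serpini1, which encodes neuroserpin, a protease inhibitor secreted by neurons, was at 0.868 and 0, then 13.2 and 18.6, then 18.8 and 14.2. Tubb4a and Oxct2a, like Snap25, were lower in both hairpin libraries than in both PE+TSA libraries. The 5 were chosen for likeness over these same libraries, so a shared order is a description.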

How the data were processed

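RNA of 6 libraries was analysed from a table of FPKM values that the authors deposited, whose header names no unit. Cufflinks and rn6 appear, without version or role, per the submitters' processing notes (aligner, annotation, strand setting: not given in the sources used here). Reads of near-identical or overlapping genes may therefore be split between them.

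Of 13843 features, 10359 with a mean of 1 FPKM or more were tested on log2(FPKM + 1) with limma 3.58.1 in R 4.3.3, in a fit of all 3 groups with a variance prior that follows the level (3 residual degrees of freedom, 3.27 from the prior). P-values are two-sided and were adjusted by the Benjamini-Hochberg method over each comparison; the procedure was tested on simulated data. Relative depth is the commonest ratio of low values. Values of 2873 of the 9461 features with a value in all 6 libraries fell within 0.02 of whole multiples (none with shifted depths). For members a value in at least 4 libraries was enough, and their whole reads may be too small by a common factor.

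Members, lists and tests were chosen with earlier results of these data known. Named were all members, the closest paralogs, and of the vesicle and traffic lists the called features and those of smallest p; marker lists are given by count, sum and highest members. Amph and the markers Th, Dbh, Stmn2, Prph, Thy1, Sox10, Acta2, Des, Col1a1, Col1a2, Tnni3, Myl3, Pln and Casq2 were named after their values were seen. In all 15 other settings were tried: 0.1 or 5 added, no filter or 5 FPKM, trimmed-mean or quantile scaling, no trend, 2 groups alone, a replicate block, and each of 6 libraries left out.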

Additional observations from a re-analysis of the deposited data

How the results depend on the processing

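Among the release genes, Snap25 kept its rise with TSA in all 15 settings. The number of member listings called with TSA, 2 as reported, was 1 with 0.1 FPKM added, with no filter, with a filter of 5 FPKM, with quantile normalization, with no trend, with the replicate block, with the 2 groups alone, and without each library in turn (range 1 to 1); the 1 was Snap25. Against PE, with both treatments, 3 became 1 with 5 FPKM added, with no filter, with a filter of 5 FPKM, with quantile normalization, with the replicate block and without each library (range 1 to 1), and 0 with the 2 groups alone (limma, 4 at an unadjusted p under 0.05). The filter of 5 FPKM leaves Snap25, Vamp2 and Sv2a alone to be tested. For the JIP1 hairpin the count was 0 throughout (range 0 to 0). Differences between replicates 1 and 2 correlated weakly between groups, at 0.0735, 0.122 and 0.0396. Weak correlation over all features does not exclude that replicate numbers pair the samples. In each group the summed myocyte markers were lower in replicate 2 and the summed fibroblast markers higher, while the neuron sum kept no single order.

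Over all features, calls numbered 84, 30 and 857 in the 3 comparisons. With no filter there were 3, 0 (1898 at an unadjusted p under 0.05) and 374, with the 2 groups alone 5, 8 and 4, with no trend 36 and 2 in the first 2, and with the replicate block 28 and 18. Leaving out 1 library gave 6 to 250, 8 to 19 and 18 to 984; without PE replicate 2 there were 16, 8 and 24. List values without PE replicate 2 were added after the data were seen. The cause was not tested.

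Small changes turned their sign. With TSA, Stx1a (0.28) was at -0.21 with quantile normalization and -0.30 without PE+TSA replicate 2 (up to 0.86 without a single library), Vamp2 (-0.07) at 0.06 without PE replicate 2 and at 0.13 when PE+TSA replicate 2 was left out (down to -0.27), and Sv2a (0.01) at -0.071 with trimmed-mean scaling, -0.11 with quantile normalization, -0.04 without PE replicate 1 and at -0.11 when PE+TSA replicate 1 was left out (up to 0.13). With the hairpin, Syt1 listing 2 (-0.12) was at 0.08 without PE+TSA replicate 2 and 0.093 without PE+TSA+shJIP1 replicate 2 (down to -0.34), and Syp (-0.04) at 0.37 without PE+TSA+shJIP1 replicate 1 (down to -0.46). Against PE, Syt1 listing 1 (0.21) was at -0.15 with quantile normalization.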

Other observations

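Amph, the gene of amphiphysin, a protein of vesicle retrieval, has 2 listings in the table. Listing 1 was at 121180 FPKM in PE+TSA replicate 2 and at 0 in the other 5 libraries. Listing 2 was at 88.0 FPKM in PE replicate 1, 0 in PE replicate 2, 665 and 755 under PE+TSA, and 1349 and 518 under PE+TSA+shJIP1. Listing 1 has a log2 difference of 8.44 with TSA, the highest of the vesicle and release list, and stands on 1 library, as listing 1 of Syt1 does.

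Some general traffic SNAREs were lower with TSA in values, although none passed. Vamp8, a SNARE of endosomes and secretory granules, was at 28.2 and 15.8 FPKM under PE, 7.01 and 4.53 under PE+TSA, and 9.98 and 3.53 with the hairpin (TSA -1.74 ± 0.51, limma adjusted p = 0.162). Stx11 and Stx16 were higher in both hairpin libraries (41.4 and 28.6; 59.0 and 52.3 FPKM) than in both PE+TSA libraries (17.1 and 11.7; 18.8 and 31.3), with adjusted p = 0.147 and 0.152.

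The profiles nearest to that of Vamp2 were Chchd1, Rnf41, Srsf6, Src and RGD1311747. Their root mean square differences were 0.05 to 0.09 on the log2 scale. Of the 5, 4 (not Srsf6), like Vamp2, had both hairpin libraries below the other 4. Such a shared order follows largely from the choice by likeness over these same libraries, so it is a description.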
